A study of Mus musculus with 14 samples.

Results

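The comparison set the bone marrow of mice irradiated with 8 Gy against that of unirradiated mice, in animals that had first received 1 of 3 radioprotective drugs. Its members were chosen from the sample labels: the 3 microRNA (miRNA) arrays at 8 Gy and the 3 at 0 Gy from marrow pretreated with amifostine, CBLB502 or nilestriol, which are 6 of the 14 arrays of the study. The study profiled miRNAs in bone marrow and hypothalamus 12 h after gamma irradiation. All groups were male C57BL/6 mice of 6 to 8 weeks, and each array held RNA pooled from 3 mice. Each drug and dose therefore had 1 array, and a p-value measures the spread between the 3 drugs' pairs of pools, not between mice. Amifostine is converted in tissues to a free thiol that takes up radicals, and mice received 10 mg/kg i.p. 0.5 h before the time of irradiation. CBLB502 (entolimod) is an engineered bacterial flagellin and a ligand of the receptor TLR5, given i.p. at 0.2 mg/kg 0.5 h before. Nilestriol, a long-acting oestrogen, was given into the stomach (i.g.) at 150 mg/kg 48 h before. The 4 arrays of the vehicle arms (PBS given i.p. or i.g., at 8 and 0 Gy) stood outside the comparison of 8 with 0 Gy. They entered the scaling, the fit that shared its spread with them, the tests of 1 arm against the others, and the test of whether the drug arms differed from them.

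Mature miRNAs are short RNAs that guide the silencing machinery to messages complementary to their seed, the bases just after the first. Marrow is among the most radiosensitive tissues, because its dividing progenitors and lymphocytes enter p53-driven arrest or death after DNA damage while maturing and non-dividing cells persist longer. Several miRNAs mark these compartments: miR-451a and miR-144 the red cell lineage, miR-223 granulocytes, miR-150 and miR-181 lymphocytes, and miR-34a the transcriptional response to p53. In bulk marrow, fewer cells of a type and less RNA per cell cannot be told apart.

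Of the 389 miRNAs tested, 306 were matched by name to a mature sequence in the RefSeq annotation of GRCm38.p6. The other 83 found no match by name, which does not mean that they lack an annotated sequence. The sequences below are those of the miRNAs on which the results turn, written 5′ to 3′ with the seed (bases 2 to 8) in capitals. The first is the p53 target miR-34a-5p of Mir34a (chr4:150068473-150068494, plus strand), and the next 2 are the erythroid miR-451a (chr11:78073186-78073207, plus strand) and miR-144-3p (chr11:78073047-78073066, plus strand), products of neighbouring genes.
miR-34a-5p: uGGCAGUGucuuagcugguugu
miR-451a: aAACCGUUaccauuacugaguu
miR-144-3p: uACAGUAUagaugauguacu

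The miR-15/16 family is shown because its members share 1 seed and 5 of the 6 tested were higher in all 3 arms. Mir15a lies at chr14:61632075-61632096 (minus strand), Mir497 at chr11:70234730-70234751 (plus strand) and Mir195a beside it at chr11:70235062-70235082, while the mature miR-16-5p has 2 loci, 1 of them Mir16-2 at chr3:69009918-69009939 (plus strand).
miR-16-5p: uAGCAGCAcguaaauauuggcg
miR-15a-5p: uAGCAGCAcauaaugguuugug
miR-15b-5p: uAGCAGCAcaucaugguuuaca
miR-195a-5p: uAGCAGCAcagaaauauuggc
miR-497-5p: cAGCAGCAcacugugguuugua

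The lymphoid miR-181b-5p and miR-181a-5p (1 locus of each at chr1:137966650-137966673 and chr1:137966468-137966490, plus strand) share the seed ACAUUCA, and they are the 2 of its 4 tested miRNAs that were lower at 8 Gy in all 3 arms. miR-363-3p (Mir363, chrX:52741697-52741718, minus strand) shares its seed with miR-25-3p (chr5:138165332-138165353, minus strand), which was higher while miR-363-3p was lower.
miR-181b-5p: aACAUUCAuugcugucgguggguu
miR-181a-5p: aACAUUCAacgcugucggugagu
miR-363-3p: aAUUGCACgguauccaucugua
miR-25-3p: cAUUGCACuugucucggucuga

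The last set belongs to the nilestriol arm, in which let-7e-5p (chr17:17830366-17830387, plus strand), miR-199a-3p (1 of 2 loci at chr1:162217883-162217904, plus strand) and miR-125b-5p (1 of 2 loci at chr9:41581940-41581961, plus strand) were higher at 8 Gy by more than in the other arms, and miR-1306-3p (chr16:18284248-18284268, minus strand) was lower at 8 Gy in that arm and higher in the others.
let-7e-5p: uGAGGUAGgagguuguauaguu
miR-199a-3p: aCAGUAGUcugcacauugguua
miR-125b-5p: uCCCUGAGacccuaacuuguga
miR-1306-3p: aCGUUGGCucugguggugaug

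The arrays carried probes for 1247 miRNAs, of which 363 to 403 were detected on each of the 6 drug-arm arrays, with no saturated miRNA and a median signal of the detected ones between 43.6 and 58.8 intensity units. Levels are given as relative signal, meaning the spot signal over the 75th percentile of the same array, taken from the 296 miRNAs that every bone marrow array detected. Values below a floor of 0.0252 were raised to it, so values at the floor have no order. Differences are 8 minus 0 Gy on the log2 scale. 1 array stood apart from the others of its dose. The nilestriol array at 0 Gy differed from the mean of the other 4 unirradiated marrow arrays with an SD of 0.68 (log2, over 371 miRNAs), against 0.35 to 0.49 for those 4. Among the irradiated arrays the CBLB502 array had the highest SD at 0.54, and the nilestriol array the lowest at 0.27.

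With 3 pairs, limma called 0 of 389 miRNAs (0% of those tested) at a Benjamini-Hochberg adjusted p under 0.05. The smallest adjusted p was 0.14, and 87 miRNAs had an unadjusted p under 0.05, 65 of them higher and 22 lower at 8 Gy. An exact sign test over 3 pairs cannot go below 0.25. When the spread between pairs was shared with the 2 vehicle arms (10 arrays, 371 miRNAs), 23 miRNAs passed as higher (6.2%) and 3 as lower (0.809%). That count changed with every arm left out. It was 0 without the amifostine arm, 3 without CBLB502, 18 (7 higher and 11 lower) without nilestriol, and 0 without either vehicle arm. Leaving out an arm also lowers the residual degrees of freedom below 3, so these counts cannot show on which arm the calls rest. Of those 18 miRNAs, 6 were among the 26 calls. miR-34a-5p passed in 11 of the 15 other settings of this fit. miR-451a and miR-181b-5p passed in fewer. Neither passed with scaling over all miRNAs, without scaling, by quantile normalization, with the scanner software's totals or with the authors' values. With scaling over all miRNAs, without scaling or with the scanner software's totals, miR-34a-5p was the only miRNA of all that passed in this fit. By direction alone, 99 of the 389 miRNAs were higher at 8 Gy in all 3 drug arms (25.4%), 62 were lower in all 3 (15.9%) and 228 were mixed. The 3 arrays at 8 Gy lay all above the 3 at 0 Gy for 62 miRNAs (15.9%) and all below for 38 (9.77%). The median difference over all tested miRNAs was 0.07.

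**Figure D1:**
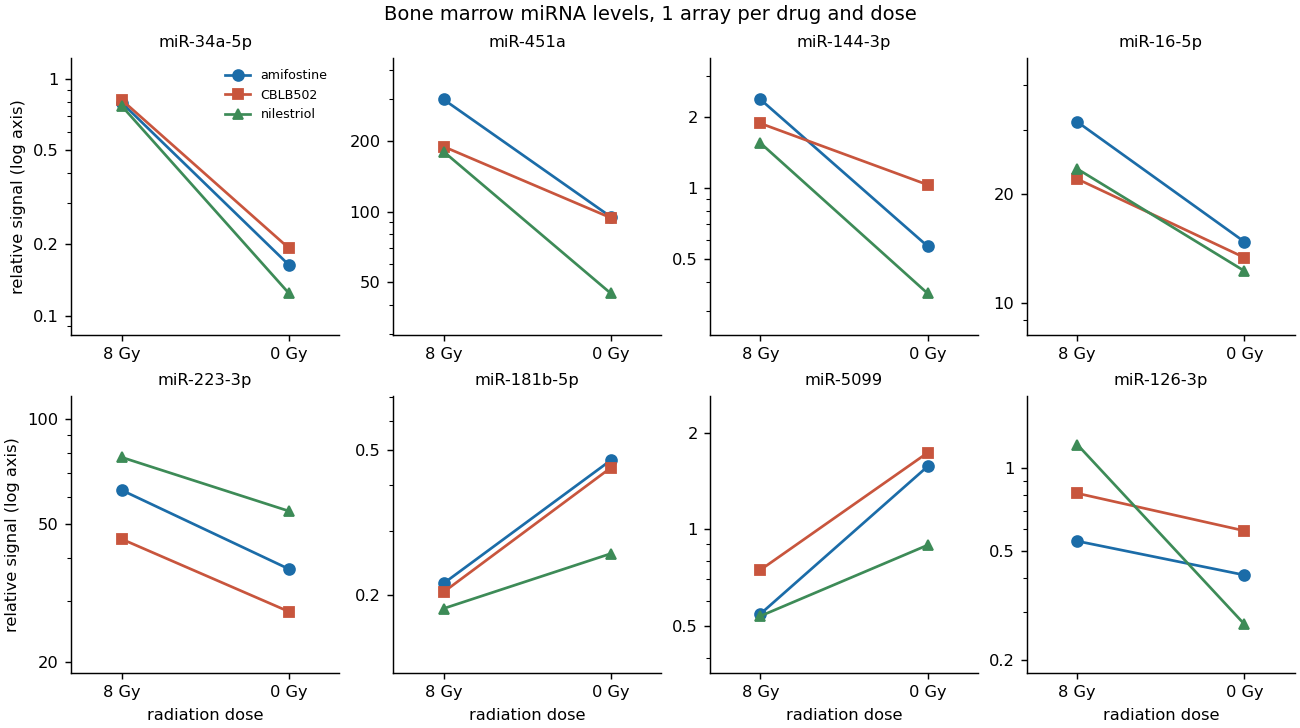
Relative signal (log axis) of 8 miRNAs on the 6 drug-arm arrays, with the 8 Gy array at the left and the 0 Gy array at the right of each panel. Each line joins the pair of arrays of 1 drug. miR-34a-5p lay between 0.771 and 0.817 at 8 Gy and between 0.125 and 0.193 at 0 Gy, whereas miR-126-3p differed by more in the nilestriol pair than in the others.

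The p53 responsive miRNAs stood higher after 8 Gy, led by miR-34a-5p, which p53 transcribes and which represses messages of cell cycle and survival genes such as Bcl2. miR-34a-5p had a relative signal of 0.795, 0.817 and 0.771 at 8 Gy with amifostine, CBLB502 and nilestriol, against 0.164, 0.193 and 0.125 at 0 Gy. The 3 irradiated arrays lay close together and far above the unirradiated ones. The difference was 2.33 ± 0.15 (SE, n = 3 pairs), a 5.03-fold higher level, with an adjusted p of 0.14 in the limma fit of the drug arms and of 0.00667 in limma with the shared spread. miR-194-5p, a p53-induced miRNA, had 0.117, 0.0686 and 0.118 at 8 Gy, against 0.0609, 0.0479 and 0.0644 at 0 Gy. Its difference was 0.78 ± 0.14, with an adjusted p of 0.14 in limma and 0.0453 with the shared spread. The groups did not overlap, and the CBLB502 array was the lowest at both doses. miR-192-5p, made from the same transcripts as miR-194, differed by 0.43 ± 0.15 and miR-107-3p, which lies in an intron of Pank1, by 0.45 ± 0.14. All 4 tested members of the list were higher in all 3 arms, beside 25.4% of all tested miRNAs. Their median difference was 0.77 with amifostine, 0.34 with CBLB502 and 0.74 with nilestriol, and in the vehicle arms 0.42 (PBS i.p.) and 0.29 (PBS i.g.). The other family members miR-34b and miR-34c, and miR-215-5p, were detected on 0 of the 6 arrays. The 4 tested members are not independent, since miR-192-5p and miR-194-5p lie in the same cluster. miR-103-3p, which has the seed of miR-107-3p but is not on the list, differed by 0.65 with amifostine, 0.28 with CBLB502 and 0.62 with nilestriol.

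The erythroid miRNAs were the list with the highest median difference, 1.46. miR-451a, which is cut by Ago2 without Dicer and accumulates as red cell precursors mature, had a relative signal of 299.9, 189 and 180 at 8 Gy with amifostine, CBLB502 and nilestriol, against 95, 94.1 and 44.9 at 0 Gy. Each irradiated array lay above all unirradiated ones, and the nilestriol array at 0 Gy was the lowest. The difference was 1.56 ± 0.25 (adjusted p of 0.14 in limma, 0.0423 with the shared spread). In the latter fit miR-451a did not pass without scaling or by quantile normalization. miR-144-3p, whose gene stands beside that of miR-451a and is driven with it by GATA1, had 2.39, 1.89 and 1.56 at 8 Gy, against 0.566, 1.03 and 0.356 at 0 Gy. It differed by 2.08 with amifostine, 0.87 with CBLB502 and 2.13 with nilestriol. Its opposite strand, miR-144-5p, differed by 1.07 ± 0.21. miR-3107-5p, an older name of miR-486b-5p, had 8.12, 5.05 and 4.14 at 8 Gy, against 2.24, 2.62 and 1.17 at 0 Gy. miR-486-3p differed by 1.38 ± 0.26, with values near the floor at 0 Gy. miR-3107-3p had 0.068, 0.0493 and 0.047 at 8 Gy and lay at the floor on all 3 arrays at 0 Gy. At this floor it was at least 2.14-fold higher, and its difference ranged from 0.37 to 3.48 under the alternatives run. The groups did not overlap for any of the 6 tested members (beside 15.9% of all tested miRNAs above), and all 6 were higher in every arm. The 6 are not independent. miR-144-5p, miR-144-3p and miR-451a lie in the same cluster, and miR-3107-5p and miR-3107-3p are opposite strands of the same miRNA. 5 of the 6 passed with the shared spread, miR-144-3p being the exception (adjusted p of 0.0989 in limma), beside 6.2% of all miRNAs in that fit. No call of that fit was left without the amifostine arm or without either vehicle arm. The list's median was 0.91 in the CBLB502 arm and 1.73 and 1.68 in the amifostine and nilestriol arms.

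miR-22-3p, which accumulates during erythroid maturation, had 2.16, 1.80 and 1.77 at 8 Gy, against 0.858, 0.989 and 0.849 at 0 Gy. The difference was 1.09 ± 0.14 (adjusted p of 0.14 in limma, 0.0423 with the shared spread). The 6 values fell into 2 tight sets. Its opposite strand miR-22-5p was detected on every array at 8 Gy and on 1 of 3 at 0 Gy. With the floor used it was at least 1.94-fold higher, and its difference ranged from 0.32 to 5.91 under the alternatives run.

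Of 7 tested lymphoid miRNAs, 0 were higher and 3 lower in all 3 arms, beside 15.9% lower among all tested miRNAs, and 4 were mixed. miR-181b-5p, which is high in lymphocyte precursors, had 0.215, 0.204 and 0.184 at 8 Gy with amifostine, CBLB502 and nilestriol, against 0.468, 0.447 and 0.26 at 0 Gy. All 3 irradiated arrays were below the unirradiated ones, and the nilestriol array at 0 Gy was nearest to them. The difference was -0.92 ± 0.19 (adjusted p of 0.14 in limma, 0.0491 with the shared spread). In the latter fit miR-181b-5p did not pass without scaling, by quantile normalization or with outlier spots kept. miR-181a-5p, from the same transcripts, differed by -0.54 ± 0.18 and its groups overlapped. miR-150-5p, the miRNA of mature lymphocytes that targets Myb, had 0.859, 0.516 and 0.632 at 8 Gy, against 1.26, 1.18 and 0.704 at 0 Gy. It differed by -0.56 with amifostine, -1.20 with CBLB502 and -0.16 with nilestriol, and the nilestriol array at 0 Gy overlapped the irradiated arrays. miR-155-5p, raised on lymphocyte activation, and miR-342-3p, from an intron of Evl, differed by -0.83 and -0.62 with CBLB502 but by 0.10 and 0.52 with nilestriol. miR-181c-5p and miR-181d-5p, which have the same seed, differed by -0.03 and -0.18 over the arms, and by 0.15 and 0.11 with nilestriol. The list's median was -0.35 with amifostine, -0.78 with CBLB502 and 0.10 with nilestriol. Without the nilestriol arm it was -0.53, against -0.32 with all 3 arms. The vehicle arms' medians were -0.42 for PBS i.p. and -0.59 for PBS i.g. The adjusted p-values of the members in limma lay between 0.14 and 0.89.

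Of the 7 tested myeloid miRNAs, 4 were higher in all 3 arms, beside 25.4% of all tested, and 0 lower. miR-223-3p, the granulocyte miRNA, had 62.6, 45.3 and 77.8 at 8 Gy, against 37.1, 28 and 54.5 at 0 Gy. Its groups overlapped because the drugs' levels differed, yet each pair differed the same way, by 0.75, 0.69 and 0.51. The difference was 0.65 ± 0.10 (adjusted p of 0.14 in limma, 0.0436 with the shared spread). miR-142-3p, common to blood cells, stood at 7.16, 7.50 and 6.60 at 8 Gy, against 6.99, 6.88 and 6.61 at 0 Gy. Of the Mir23a cluster, miR-23a-3p and miR-27a-3p differed by 0.40 and 0.38, and miR-24-3p by 0.21. miR-21a-5p, a stress and inflammation miRNA, had 9.46, 9.04 and 9.29 at 8 Gy, against 5.54, 6.91 and 6.34 at 0 Gy. Its irradiated arrays lay above the unirradiated ones without overlap (0.57 ± 0.12, adjusted p of 0.15 in limma). In the inflammation list, miR-146b-5p differed by 0.52 ± 0.09, whereas its relative miR-146a-5p, an NF-kappaB target that dampens Toll-like receptor signalling, differed by -0.34 with amifostine, -0.27 with CBLB502 and 0.89 with nilestriol.

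The miR-15/16 family, whose seed is AGCAGCA and whose targets include cyclins and Bcl2, was higher as a group. miR-16-5p had 31.7, 22 and 23.5 at 8 Gy, against 14.8, 13.4 and 12.3 at 0 Gy. The groups were well apart, with a difference of 0.92 ± 0.12 (1.89-fold, adjusted p of 0.14 in limma, 0.0423 with the shared spread). miR-15a-5p differed by 0.75 ± 0.12 and miR-15b-5p by 0.70 ± 0.19. miR-497-5p differed by 0.93 with amifostine, 0.22 with CBLB502 and 2.24 with nilestriol, and its neighbour miR-195a-5p by 0.79, 0.22 and 1.52. 5 of 6 members were higher in all 3 arms without overlap of the groups, miR-322-5p, of the X-linked Mir322 cluster, being the exception, beside 25.4% higher in all 3 arms and 15.9% without overlap above among all tested miRNAs. The family's median was 0.80, and 0.58 without the nilestriol arm. In the vehicle arms it was 0.44 for PBS i.p. and 0.22 for PBS i.g.

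The let-7 family, with the seed GAGGUAG and a role in differentiation, had 7 of 9 members higher in all 3 arms (25.4% of all tested miRNAs) and 0 lower, at a median of 0.52. let-7i-5p had 8.72, 6.81 and 6.41 at 8 Gy, against 5.58, 5.57 and 4.09 at 0 Gy. Its groups did not overlap, and its difference was 0.53 ± 0.13 (adjusted p of 0.17 in limma). The family's median was 0.56 with amifostine, 0.11 with CBLB502 and 0.83 with nilestriol. The vehicle arms' medians were 0.04 for PBS i.p. and 0.20 for PBS i.g. In the miR-30 family miR-30a-5p had 0.963, 0.712 and 0.642 at 8 Gy, against 0.38, 0.424 and 0.229 at 0 Gy. It differed by 1.19 ± 0.20 (adjusted p of 0.0423 with the shared spread in limma), while the 5 other tested members ranged from -0.28 to 0.45. The miR-29 family, which targets collagen messages, had a median of 0.22, with miR-29c-3p highest at 0.47.

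miR-17-92 and its paralogs, which drive proliferation, gave no single direction: 3 of 12 tested members were higher in all 3 arms, 3 lower and 6 mixed. Among all tested miRNAs 25.4% were higher and 15.9% lower, so these counts lay near the shares over all. The list's median was 0.01. The higher ones were of the Mir106b cluster on chromosome 5: miR-25-3p had 7.28, 5.10 and 5.11 at 8 Gy, against 3.99, 3.99 and 2.64 at 0 Gy. It differed by 0.72 ± 0.17 (adjusted p of 0.17 in limma) and miR-93-5p by 0.60 ± 0.13. The lower ones included miR-363-3p of the X-linked Mir106a cluster, which no drug-arm array at 8 Gy detected and every drug-arm array at 0 Gy did. It was at the floor on all 3 irradiated arrays, against 0.0844, 0.0897 and 0.0386 on the unirradiated ones. At this floor it was at least 2.63-fold lower (adjusted p of 0.16 in limma). Its difference ranged from -7.32 to -0.11 under the alternatives run, so its size depended on the processing. miR-19a-3p and miR-19b-3p differed by -0.19 and -0.38. miR-25-3p and miR-363-3p have the seed AUUGCAC in common, and the third tested member with it, miR-92a-3p, differed by 0.17.

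**Figure D2:**
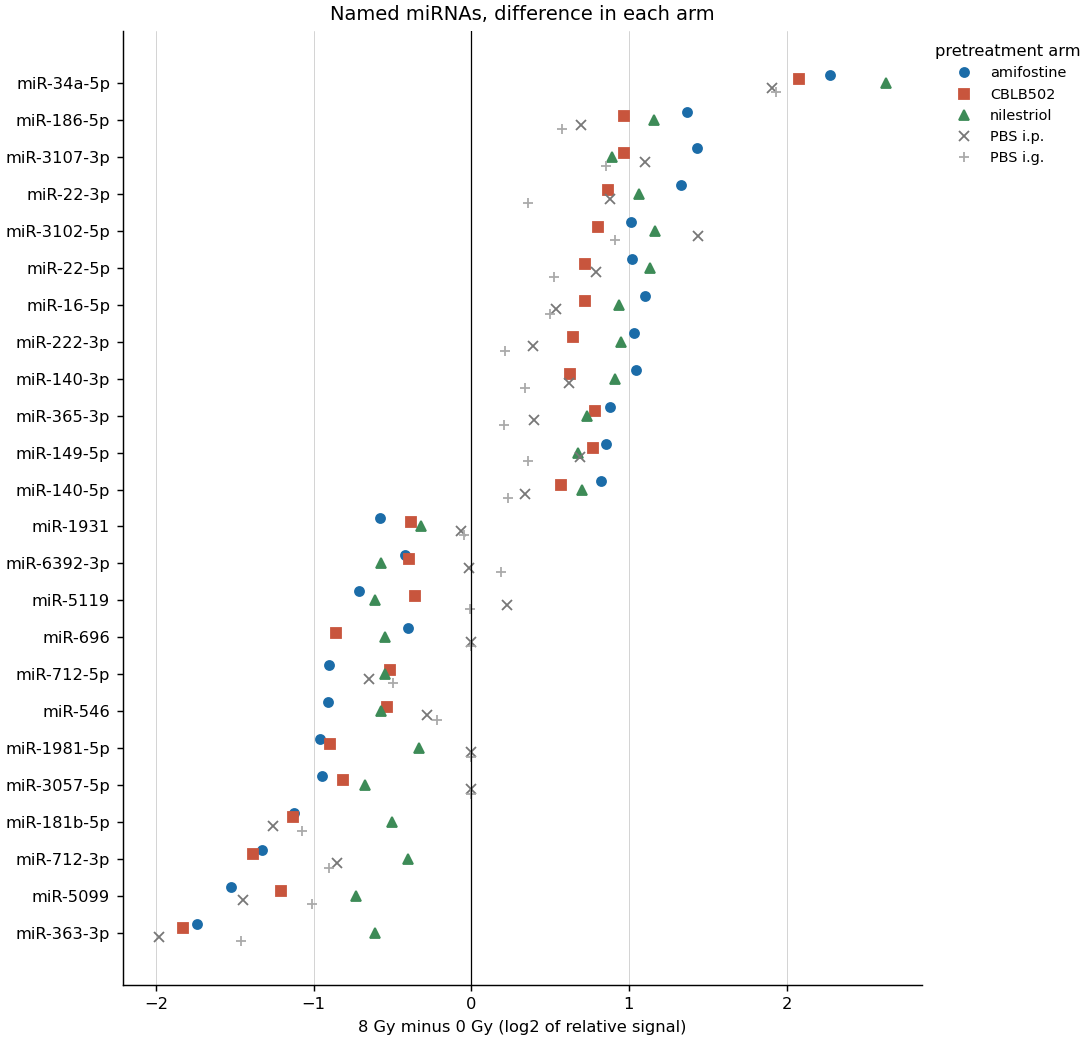
Difference 8 minus 0 Gy (log2 of relative signal) of the 24 named miRNAs in each pretreatment arm. Coloured symbols are the 3 drug arms and grey symbols the 2 vehicle arms, which were not used to choose the miRNAs. The choice fixes that the 3 drug arms share a sign. miR-34a-5p lay between 2.08 and 2.63 in the drug arms, and miR-3057-5p, miR-696 and miR-1981-5p lay at 0 in both vehicle arms, where they were at the floor.

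The stem and progenitor list held a neighbouring pair, miR-222-3p with miR-221-3p, that represses Kit and the cell cycle inhibitor Cdkn1b and was higher in every arm. miR-222-3p had 0.431, 0.371 and 0.286 at 8 Gy, against 0.211, 0.237 and 0.148 at 0 Gy. It differed by 0.87 ± 0.13 and miR-221-3p by 0.58 ± 0.09, with adjusted p of 0.14 for both in limma, and of 0.0423 and 0.0453 with the shared spread. miR-10b-5p, from a Hox cluster, differed by 0.65 ± 0.13 and miR-10a-5p by 0.59 ± 0.17. miR-125b-5p and miR-126-3p, of stem and endothelial cells, differed by 0.10 to 0.45 in the amifostine and CBLB502 arms and by 1.95 and 2.17 with nilestriol. The list had 7 of 11 members higher in all 3 arms, beside 25.4% of all tested miRNAs. Its median was 0.59, and 0.25 without the nilestriol arm.

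The remaining miRNAs named for a higher level have no lineage common to all of them, though both miR-140 strands are on the stromal and endothelial list. miR-186-5p had 0.154, 0.109 and 0.0919 at 8 Gy, against 0.0596, 0.0558 and 0.0411 at 0 Gy (1.17 ± 0.13). With the scanner software's own totals per miRNA its sign turned, to -0.60. miR-3102-5p, a mirtron (a miRNA spliced from a short intron), differed by 0.99 ± 0.12, while the opposite strand miR-3102-3p differed by -0.73 ± 0.30. miR-877-5p, another mirtron, differed by 0.89 ± 0.16. miR-365-3p, miR-149-5p, miR-140-5p and miR-140-3p (both miR-140 strands being cartilage miRNAs) differed by 0.80, 0.77, 0.70 and 0.86, with SE of 0.09 to 0.13.

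Among the miRNAs named for a lower level, miR-5099 had 0.547, 0.749 and 0.538 at 8 Gy, against 1.57, 1.73 and 0.894 at 0 Gy. Its groups did not overlap, and it differed by -1.15 ± 0.20 (adjusted p of 0.14 in limma, 0.0436 with the shared spread). miR-546 had 0.0544, 0.0713 and 0.0714 at 8 Gy, against 0.102, 0.103 and 0.106 at 0 Gy. The unirradiated arrays lay close together above the irradiated ones, and the difference was -0.67 ± 0.13, which turned to 0.14 with the scanner software's totals. miR-712-5p and miR-712-3p, both arms of a mouse miRNA cut from the spacer of ribosomal precursor RNA, differed by -0.66 ± 0.13 and -1.04 ± 0.27. With the scanner software's totals miR-712-3p differed by 0.0355. miR-6392-3p, miR-5119 and miR-1931 differed by -0.46, -0.56 and -0.43, with SE of 0.10 to 0.12. No irradiated drug-arm array detected miR-3057-5p, whereas every unirradiated drug-arm array did. It was at least 1.75-fold lower, though with normexp background its difference was 0.0502. miR-696 was at the floor on all 3 drug-arm arrays at 8 Gy, though detected on all 3, and at least 1.52-fold lower. miR-1981-5p differed by -0.73 ± 0.18. With normexp background miR-696 and miR-1981-5p differed by 0.0542 and 0.0389, and miR-1981-5p by 0.10 with the scanner software's totals. In both vehicle arms miR-3057-5p, miR-696 and miR-1981-5p were at the floor at 0 Gy as well as at 8 Gy. The 12 miRNAs named for a lower level had adjusted p-values from 0.14 to 0.17 in limma.

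Some miRNAs of other cell types differed with irradiation as well. The 12 stromal and endothelial miRNAs on the array, 8 of them tested, had a summed relative signal of 4.11, 3.67 and 4.28 at 8 Gy with amifostine, CBLB502 and nilestriol, against 2.33, 2.63 and 1.75 at 0 Gy. 3 of the 8 tested were higher in all 3 arms, beside 25.4% of all tested miRNAs, and the medians were 0.51, 0.12 and 1.40. The vehicle arms' medians were -0.08 for PBS i.p. and -0.11 for PBS i.g. Of the 8, 2 passed as higher with the shared spread, miR-140-3p and miR-140-5p, beside 6.2% of all miRNAs in that fit. The same 2 were the only ones whose groups did not overlap, beside 15.9% of all tested miRNAs above. The median over the 3 arms was 0.81, and 0.31 without the nilestriol arm. This list shares miR-126-3p and miR-100-5p with the stem and progenitor list. miR-143-3p and miR-145a-5p, the defining miRNAs of smooth muscle and stroma, were detected on 1 and 0 of the 6 arrays. The 6 muscle miRNAs on the array, of which miR-1a-3p, miR-133a-3p and miR-133b-3p were tested, summed to 0.414, 0.309 and 0.298 at 8 Gy, against 0.225, 0.308 and 0.124 at 0 Gy. The CBLB502 pair was nearly equal, and the other 2 pairs were higher at 8 Gy. miR-206-3p was detected on 1 of the 6 arrays, and miR-208b-3p and miR-499-5p on 0. Neuronal miR-124-3p and miR-9-5p, liver miR-122-5p and epithelial miR-200a-3p were detected on 0 of 6. The sum over the neuronal list was 0.449, 0.326 and 0.474 at 8 Gy, against 0.448, 0.474 and 0.398 at 0 Gy. The sum over the epithelial and liver list was 0.227, 0.129 and 0.197 at 8 Gy, against 0.121, 0.203 and 0.0975 at 0 Gy, and of its 8 entries only miR-200c-3p was tested. The part of these miRNAs in the other differences was not tested.

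3 further lists had medians near that of all tested miRNAs or mixed directions. The miR-362 cluster in Clcn5 had 0 of 6 tested members higher in all 3 arms (25.4% of all tested miRNAs). In that list 1 was lower (15.9% of all tested), miR-362-3p at -0.66 ± 0.19. The list of miR-466 and its repeat-derived relatives, many of them in Sfmbt2, had 10 of 10 tested members mixed, beside 228 of all 389. Its median was -0.08. Mirtrons had a median of 0.28, with 2 of 6 tested members higher in all 3 arms (25.4% of all tested miRNAs) and 1 lower (15.9%).

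**Figure D3:**
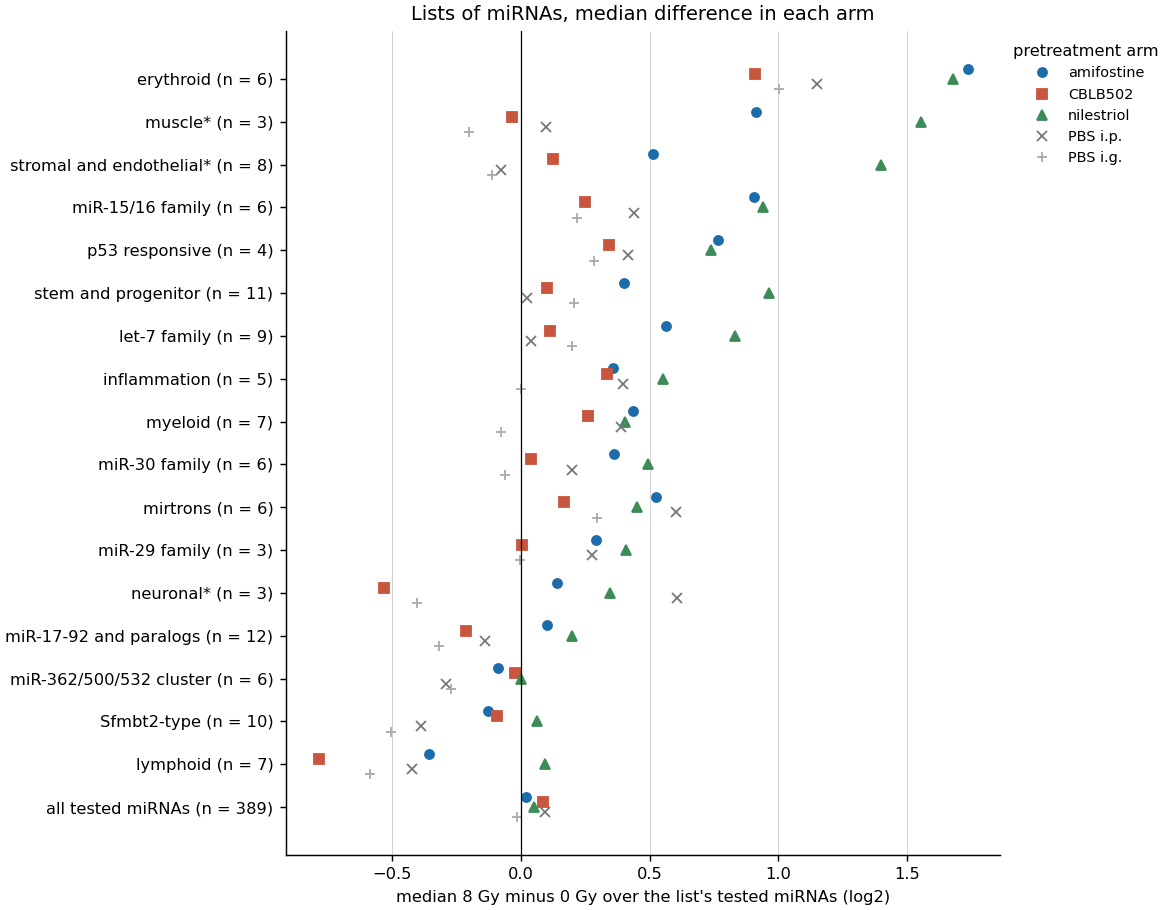
Median difference 8 minus 0 Gy (log2) of each list with at least 3 tested miRNAs, by arm, with the drug arms in colour and the vehicle arms in grey; an asterisk marks lists of other cell types. The erythroid median was 1.73, 0.91 and 1.68 in the amifostine, CBLB502 and nilestriol arms, and the lymphoid median -0.35, -0.78 and 0.10.

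The drug arms were alike to different degrees. Over the 389 miRNAs the differences of the amifostine and CBLB502 arms had a Pearson correlation of 0.68, those of amifostine and nilestriol 0.44, and those of CBLB502 and nilestriol -0.04. Such correlations run across miRNAs measured on the same arrays, not across independent samples, and each arm's values rest on 1 pair of arrays. The same pairs of arms had the same sign for 267, 253 and 174 miRNAs. Differences past 1 (log2) in size numbered 26 higher and 19 lower with amifostine, 26 and 13 with CBLB502, and 33 and 9 with nilestriol. The amifostine and nilestriol arrays lay on 1 slide and the CBLB502 arrays on another, with both doses of a drug on the same slide.

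Some miRNAs differed between doses in the nilestriol pair and little in the other arms, and those described here were chosen after their values were seen. let-7e-5p had 0.181 at 8 Gy and 0.0425 at 0 Gy with nilestriol. The amifostine and CBLB502 arrays had 0.086 and 0.0996 at 8 Gy, against 0.071 and 0.103 at 0 Gy, and the vehicle arrays lay between 0.105 and 0.144 at both doses. The nilestriol pair thus held both the highest irradiated and the lowest unirradiated value of let-7e-5p. miR-126-3p, the endothelial miRNA encoded in Egfl7, had 1.22 at 8 Gy and 0.271 at 0 Gy with nilestriol, and between 0.408 and 1.15 on the other 8 marrow arrays. miR-199a-3p, of mesenchymal cells, had 0.314 at 8 Gy and 0.0683 at 0 Gy with nilestriol, and between 0.137 and 0.301 on the other 8.

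miR-5622-3p and miR-1306-3p showed the reverse. miR-5622-3p had 8.05 at 8 Gy and 18.6 at 0 Gy with nilestriol, whereas the 4 other arms had 7.95 to 14.4 at 8 Gy and 4.32 to 5.48 at 0 Gy. For miR-1306-3p, hosted by Dgcr8, the nilestriol values were 0.725 at 8 Gy and 1.64 at 0 Gy, against 0.382 to 0.489 at 0 Gy in the 4 other arms. The nilestriol array at 0 Gy was the one that stood apart for both miRNAs.

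Set against the 4 other marrow arms, the nilestriol difference exceeded theirs by 1.97 ± 0.23 for let-7e-5p, 1.77 ± 0.21 for miR-126-3p, 1.82 ± 0.25 for miR-125b-5p and 2.14 ± 0.32 for miR-199a-3p, and the gap was -2.27 ± 0.35 for miR-5622-3p and -2.22 ± 0.36 for miR-1306-3p. With the scanner software's totals let-7e-5p turned to -4.30 (adjusted p of 0.0207 in limma), and with normexp background it was 0.71. Under normexp miR-125b-5p was 1.08 and miR-199a-3p 0.99. This test was added after the arms were seen to differ, and it treats the lone nilestriol pair as varying like the others. limma called 0 of 371 (0%), with 71 at an unadjusted p under 0.05 and the 11 smallest adjusted p-values all at 0.0542. Among the 296 miRNAs detected on all 10 arrays, 26 passed, 13 in each direction. The same test gave 0 calls for amifostine (8 unadjusted) and 0 for CBLB502 (17 unadjusted).

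**Figure D4:**
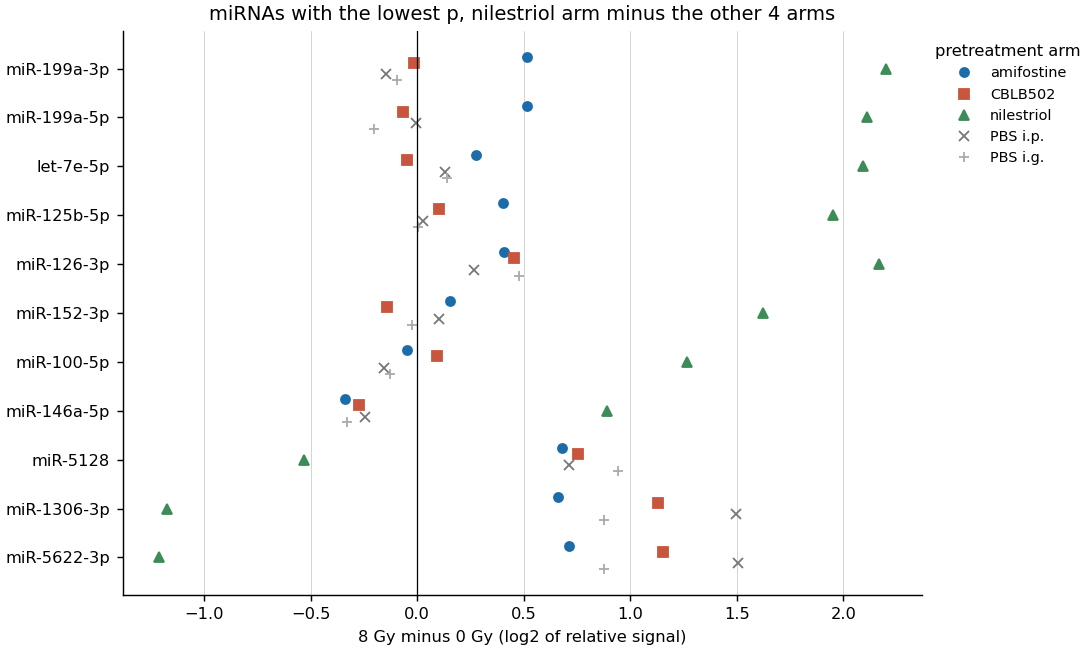
Difference 8 minus 0 Gy (log2) in each arm for the 11 miRNAs with the smallest p in the test of the nilestriol arm against the other 4 marrow arms. Nilestriol is above the other arms for 8 of the 11 and below for 3, which the choice of these miRNAs fixes.

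The relation between the difference and base composition varied between the arms. For the 306 miRNAs with a matched sequence, the difference was set against the GC content of the mature miRNA. The Pearson correlation was -0.21 with amifostine, 0.06 with CBLB502 and -0.33 with nilestriol. In the nilestriol arm the median difference was 0.41 for the 105 miRNAs of lowest GC content (27.3 to 47.6%) and -0.12 for the 98 of highest (60% or more). In the CBLB502 arm these medians were 0.06 and 0.22. The vehicle arms gave correlations of 0.17 and 0.10. These values are descriptions across miRNAs, and the part of base composition in the results was not tested.

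Within each arm the highest and lowest miRNAs among those detected on both arrays were taken by size, with no test. miR-5115 led the CBLB502 arm at 1.27 at 8 Gy, against 0.0565 at 0 Gy, or 22.5-fold. It also led the amifostine arm at 0.452 against 0.0509, but in the nilestriol arm it had 0.105 at 8 Gy, against 0.141 at 0 Gy. miR-3963 had 75.1, 150.3 and 48.9 at 8 Gy with amifostine, CBLB502 and nilestriol, against 27.6, 36.3 and 34.1 at 0 Gy. miR-3472 was 5.67-fold higher with CBLB502, and its difference was -0.78 with nilestriol. miR-504-3p (2.12) and miR-1927 (2.84) were among the highest with amifostine, at 0.254 and 0.243 on the irradiated array. The lowest in both the amifostine and CBLB502 arms included miR-677-5p, at -1.60 and -1.57, and miR-690, at -1.58 and -1.29, neither of which differed by more than 0.1 with nilestriol. In the nilestriol arm miR-714 and miR-5105 were lowest, at -1.82 and -1.36. These 2 had 1.07 and 53.8 on the unirradiated nilestriol array, against at most 0.246 and 12.1 on the other 4 unirradiated marrow arrays.

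Whether irradiation acted differently in drug-pretreated than in vehicle-pretreated marrow was tested as the difference of the 2 differences. limma called 0 of 371 miRNAs (0%), with a smallest adjusted p of 0.66. At an unadjusted p under 0.05 there were 24, of which 14 were higher and 10 lower in the drug arms. miR-34a-5p differed by 2.33 in the drug arms and 1.92 in the vehicle arms, a gap of 0.41 ± 0.23. The smallest p belonged to miR-574-3p, whose mean difference was 0.11 in the drug arms and -0.84 in the vehicle arms, a gap of 0.95 ± 0.19. miR-466f-3p, miR-466g and miR-466h-3p, of the Sfmbt2 cluster, followed with gaps of 0.90, 0.82 and 0.88. On the other side miR-5119, miR-3473e, miR-6392-3p, miR-3093-3p and miR-696 had gaps of -0.67, -0.62, -0.55, -1.02 and -0.60. All 10 of these had an adjusted p of 0.66 in limma. Both vehicle arms lay on slide 1 with CBLB502, so slide and pretreatment cannot be fully told apart for amifostine and nilestriol. Within slide 1 alone, CBLB502 against the vehicle arms, limma called 0 of 371, with 26 at an unadjusted p under 0.05.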

How the data were processed

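Per the file headers, Feature Extraction version 10.7.1.1 wrote the deposited file of spot intensity (1 colour, Agilent) for each array, with its spatial detrending of the background switched on. The deposited value table holds log2 values made by the authors; their scaling is not given in the sources used here, and it served as an alternative. RNA was pooled before hybridization, per the labels' protocols.

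Spot signals were averaged per probe without outlier spots, then per miRNA, scaled, floored at log2 -5.31 and logged; 7.63% of the tested values lay at the floor. miRNAs detected by the scanner software on at least 3 of 6 arrays were tested with limma 3.58.1 (lmFit, eBayes, R 4.3.3), with drug as block and dose as factor, so the fit is paired by drug. The difference between drug and vehicle arms used 10 arrays and miRNAs detected on at least 5. p-values were two-sided and adjusted by Benjamini-Hochberg at 0.05. The scripts were tested on simulated data for the direction of known changes, with a smaller spread than the arrays have. Precision is limited by the number of arrays.

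The rule named the 12 highest and 12 lowest passing miRNAs of the same sign in all 3 drug arms. Where too few passed, it was filled up by the smallest unadjusted p. Since 0 passed, all 24 were taken by the smallest unadjusted p, and their agreement in sign is fixed by this choice. The text also names 5 miRNAs each way for the drug against vehicle difference and within each arm. Members of 18 lists (163 miRNAs) are named where they were highest, lowest, passing or defining. The members and lists were chosen with earlier results of these data known. Sequences came from RefSeq (GRCm38.p6) by miRNA name, 2 of them under another name. Alternatives covered scaling, background, floor, summary, value table, detection filter, block, spread, each arm left out and slide. Figures were drawn with matplotlib 3.10.9.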

Additional observations from a re-analysis of the deposited data

Results flagged for a closer look

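miR-1839-5p was higher at 8 Gy in the drug arms, while in the vehicle arms its difference was small and of the other sign. Its relative signal was 0.117, 0.11 and 0.114 at 8 Gy with amifostine, CBLB502 and nilestriol, against 0.0852, 0.0774 and 0.0774 at 0 Gy. In the vehicle arms it was 0.118 and 0.112 at 8 Gy, against 0.124 and 0.116 at 0 Gy. All 3 drug arms were higher at 8 Gy (0.46, 0.51 and 0.56) and both vehicle arms lower (-0.07 and -0.05). The gap was 0.57 ± 0.16, with an adjusted p of 0.66 in limma over all tested miRNAs, so an opposite response was not shown. This pattern of signs was found for 1 of the 50 named entries and for 6 of the 389 tested miRNAs, among them miR-26a-5p, miR-29a-3p and miR-99a-5p.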

How the results depend on the processing

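The count of calls varied with the processing. Against 0 of 389 in the drug arms, normexp background gave 23, an offset in place of the floor 16, the scanner software's totals 3, the authors' values 2, the fit with no replicate block 4, the arm as random block 4, trend and robust moderation 1 and the shared spread 26. Leaving out each arm gave 0 throughout. The shared-spread count of 26 (examined further after the data were seen) was 1 when scaled over all miRNAs, 1 without scaling, 4 by quantile normalization, 48 with normexp, 1 with the scanner totals, 3 with the authors' values, 0 without a detection filter, and 0 to 18 with 1 arm left out. The drug minus vehicle count of 0 became 1 with the scanner totals, and was 0 with each arm left out. The tests of 1 arm against the other 4, added later, went from 0 to 3 (scanner totals) and 10 (no detection filter) for amifostine. For CBLB502 they went to 4 (normexp), 2 (offset), 5 (scanner totals), 2 (the authors' values), 12 (no filter) and 1 (detected on all 10 arrays). For nilestriol they went to 17, 29, 7 and 8 under the first 4 of these, 2 with outlier spots kept, 5 with no filter and 26 when detected on all 10 arrays. Of 24 named miRNAs, 18 kept their sign under every alternative run. With normexp, miR-3057-5p, miR-696 and miR-1981-5p turned to 0.0502, 0.0542 and 0.0389. With the scanner totals, miR-186-5p turned to -0.60, miR-546 to 0.14, miR-1981-5p to 0.10 and miR-712-3p to 0.0355. In the test of the nilestriol arm, let-7e-5p turned from 1.97 to -4.30 with the scanner totals. The cause was not tested. Without scaling, the median of all tested miRNAs was -0.11 in place of 0.07. Differences of miRNAs at the floor are lower bounds under the floor and background used here, and not under other processing. Slide and drug are partly confounded, and 1 pool per drug and dose leaves the spread between mice unmeasured.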
